A study of Homo sapiens with 29 samples.

Results

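The regions described here are stretches of open chromatin that had a peak in both libraries of 22Rv1 cells carrying an inducible wild-type FOXA1 without doxycycline, and in neither library of the same cells with doxycycline. There were 1081 such regions among 166696 in all, or 0.648%. Regions were formed by merging overlapping or touching peaks of all 29 libraries, and a region counted as open in a library that had a peak over at least 1 bp of it (the library is then said to hold the region). Members were chosen by the presence of peaks in these 4 libraries, so their loss on induction is the rule and not a result. Of the 97998 regions held by any of the 4 libraries, 1.1% met the rule.

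FOXA1 is a forkhead transcription factor of the pioneer kind, which can bind its sites in closed nucleosomal DNA and leave them accessible to other factors. In prostate cells it works at enhancers with the androgen receptor, and its level and mutations alter which enhancers are used. ATAC-seq marks accessible DNA by where a transposase can insert adapters, and a peak is a place where reads pile up above the local background.

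22Rv1 is a human prostate cancer cell line. The engineered cells overexpressed PHF5A with the Y36C change, a splicing factor subunit, and carried a doxycycline-inducible (Dox) FOXA1 that was either wild type (WT) or C258A, in which cysteine C258 is replaced by alanine. The WT line was measured without Dox in DMSO, and with Dox in DMSO, in WX-02-23 or in pladienolide B (PladB), with 2 libraries each. The C258A line was measured with Dox in DMSO, WX-02-23 or PladB, again with 2 libraries each. Parental 22Rv1 cells, which carry neither construct, were measured in DMSO, WX-02-23, WX-02-43 and PladB at 10 nM and 100 nM, with 3 libraries each. DMSO was at 0.1%, WX-02-23 and WX-02-43 at 20 µM, PladB in the engineered cells at 100 nM, and all treatments lasted 3 h. WX-02-23 is a small covalent stereoprobe that can react with FOXA1 at C258, WX-02-43 is a stereoisomer of it, and PladB is an inhibitor of the SF3B splicing complex. The labels give neither the dose and duration of Dox nor whether libraries of a group came from separate cultures, and SDs therefore cover only the spread between libraries. The engineered cells are not said to have lost their own FOXA1. Every C258A library received Dox, so the action of Dox and that of the induced protein cannot be told apart, and the peak names place the parental and the engineered lists in separate processing sets, so line and set cannot be told apart either.

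The length of the peak lists differed between libraries and moved with several results below. The no Dox lists held 69814 and 67195 peaks and the Dox DMSO lists 88140 and 85009, so members lost their peak in the longer lists. The WX-02-23 lists of the WT line were short, at 67815 and 62832 peaks. The PladB lists of that line stood apart from each other, at 71121 and 88735 peaks, as did the WX-02-23 lists of the C258A line, at 76645 and 92658. Parental lists held 82538 to 98193 peaks. The main shares below are therefore also given with the 25 lists that did not choose the members cut to 62832 peaks, the length of the shortest, by the authors' p-value (an alternative added after seeing the data).

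Members were narrow and weak. Their median width was 369 bp, with quartiles of 298 and 484 bp, against 667 bp for the 50397 regions that all 4 libraries held, called kept regions here. A region spans the peaks of all libraries that hold it, so its width grows with their number, and the no Dox peaks themselves had a median width of 191 bp in members and 354 bp in kept regions. The number of reads piled up at the summit of the no Dox peaks, averaged over both libraries, had a median of 11 in members and 25.5 in kept regions. The 3195 regions held by both no Dox libraries and by just 1 Dox DMSO library, called partly kept here, lay close to members with 11.5 reads. The authors' fold enrichment at the summit had a median of 5.61 in members, 5.97 in partly kept and 9.04 in kept regions. These values come from the same 4 libraries that chose the members and are given as a description.

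Within each no Dox list, peaks were ranked by the authors' p-value, and a rank near 0% means one of the weakest peaks. The mean rank of members over both lists had a median of 15.8% and reached 55.3% at most, against medians of 21.1% in partly kept and 61.3% in kept regions. A total of 611 members ranked below 25% in both lists, and 3 ranked above 50% in both. Among regions held by both no Dox libraries, members made up 19.03% of those ranked below 10% (260 of 1366), 10.8% of those ranked 10% to 20% (460 of 4267) and 4.67% of those ranked 20% to 30% (246 of 5268). Their share fell to 0.337% at ranks of 40% to 50%, and no region ranked above 60% was a member. Most members were thus among the weaker peaks of their no Dox lists.

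**Figure D1:**
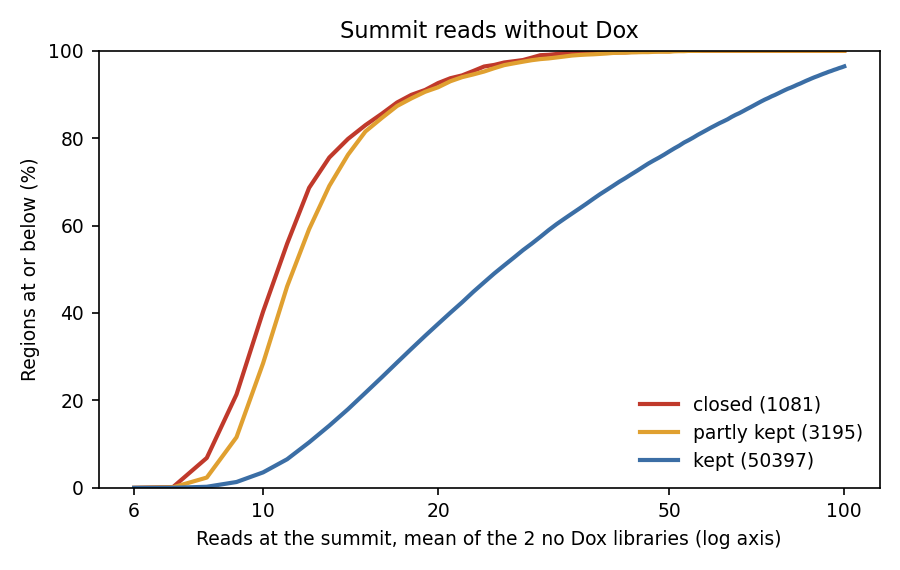
Reads piled up at the summit of the no Dox peaks, as the mean of both libraries (x axis, log scale), against the cumulative share of regions at or below that number (y axis, percent), with 1 line each for members (closed), partly kept and kept regions. Members and partly kept regions run close together, with medians of 11 and 11.5 reads, and kept regions lie to the right with a median of 25.5.

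**Figure D2:**
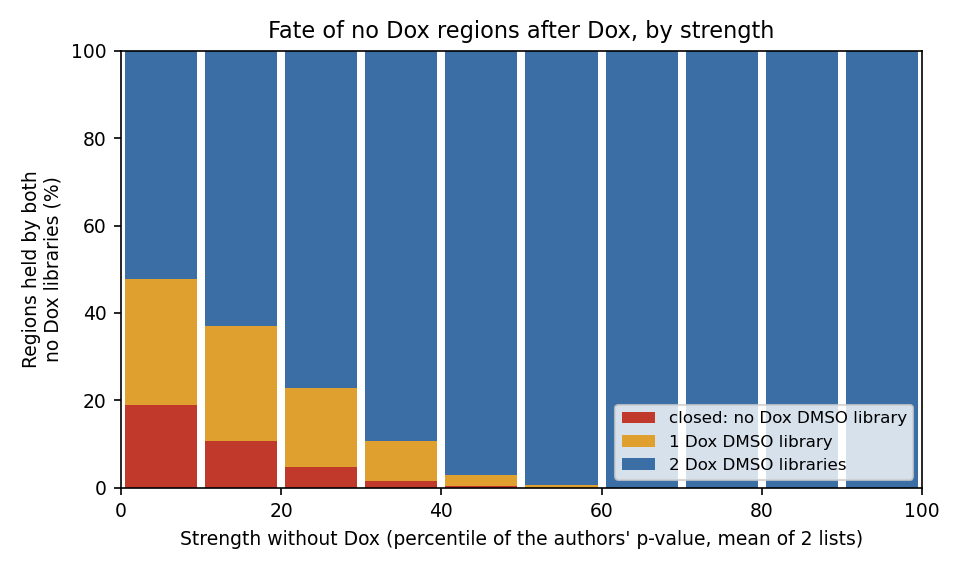
Regions held by both no Dox libraries, split by their mean rank within the no Dox lists (x axis, percentile bands), with the share of each band that was a member (no Dox DMSO library), partly kept (1) or kept (2) as stacked bars (y axis, percent). Members fall from 19.03% of the weakest band to none above a rank of 60%.

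The rule turned on small differences at its edge. Just inside, the member at chr16:30487083-30487655 had 12 and 6 summit reads in the no Dox libraries, with a −log10 q of 2.28 for the weaker peak. The next members, at chr6:110300187-110300477 and chr6:129988738-129989040, had weaker peaks of 11 and 6 reads. Just outside, the partly kept region at chr4:107166339-107166827 was left out because of 1 Dox DMSO peak of 6 reads with a −log10 q of 2.51. The partly kept regions at chr1:200988579-200988882 and chr1:94712374-94712624 were left out by Dox DMSO peaks of 15 and 11 reads. Each of the 4 libraries set the number of members: leaving out no Dox replicate 1 or 2 gave 3384 or 4229 members, and leaving out Dox DMSO replicate 1 or 2 gave 2965 or 2392.

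Most members were open in parental cells, which were not used to choose them. The 3 parental DMSO libraries held 69.3%, 73.9% and 70.7% of members, a mean of 71.3% ± 2.37 (SD, n = 3). They held 97.5% of kept, 83.7% of partly kept and 52.1% of all regions. Of the 1081 members, 293 were held by all 15 parental libraries (27.1%, against 32.6% of all regions) and 58 by none (5.37%, against 18.5% of all regions). A further 195 members were held by 13 or 14 parental libraries, which brings those held by at least 13 to 488 (45.1%, against 38.8% of all regions). With the members fixed and the lists cut to equal length, 91 were held by all 15 and 274 by none. The shares of all regions above are from the full lists and are not given at equal length. Choosing the members without 1 of the 4 libraries gave 610 (no Dox replicate 1), 717 (no Dox replicate 2), 1086 (Dox DMSO replicate 1) or 811 (Dox DMSO replicate 2) held by all 15, and 371, 493, 94 or 82 held by none, among the larger numbers of members given above. In the parental DMSO lists that held them, members had a median rank of 34.1% and 15 summit reads, against 73.0% and 35 for kept regions. With the lists cut to equal length, the parental DMSO share of members was 36.0% ± 0.385 (SD, n = 3). That value is close to the 35.7% of all regions that those shortened lists held.

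**Figure D3:**
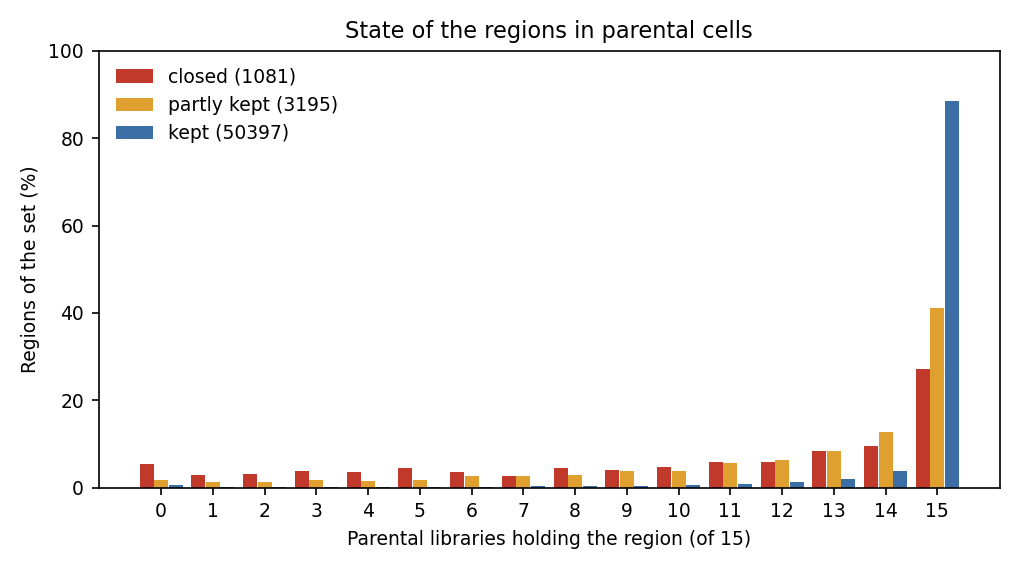
Number of parental libraries, of 15, that held a region (x axis) against the share of members, partly kept and kept regions (bars, y axis, percent). Members spread over the whole range, with 27.1% held by all 15 and 5.37% by none.

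Treatment of parental cells moved the member share in 1 of 4 comparisons without overlap in the full lists. PladB at 100 nM left 56.6%, 61.2% and 55.4% of members with a peak, a difference from DMSO of -13.5 points (SE 2.24), and all 3 libraries lay below all 3 DMSO libraries. Over all regions the same difference was -5.96 points. At equal list length PladB at 100 nM held 33.3%, 34.6% and 31.0%, still below the 35.6% to 36.4% of DMSO but by a smaller margin. The shortened lists held 88.7% of kept and 35.0% of all regions with PladB at 100 nM, and 90.2% and 35.7% with DMSO. PladB at 10 nM gave 75.4%, 66.7% and 63.9%, a range that overlapped DMSO.

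WX-02-23 in parental cells gave 69.8%, 66.0% and 66.0% of members, a difference from DMSO of -4.04 points (SE 1.85), with overlapping ranges. Over all regions the difference was 1.09 points, in the other direction. WX-02-43 gave 73.9%, 74.9% and 61.1%, also overlapping DMSO. At equal list length WX-02-23 held 33.4% ± 0.475 (SD, n = 3) and WX-02-43 held 35.8% ± 0.185 (SD, n = 3), so that the WX-02-23 libraries lay below those of DMSO. At that length WX-02-23 held 88.9% of kept and 36.0% of all regions, and DMSO 90.2% and 35.7%. Of the 986 members held by any parental DMSO or WX-02-23 library, 7 (0.710%) had a peak in all 3 WX-02-23 and no DMSO library, where 1.82% of all such regions did. The reverse held for 26 (2.64%), where 1.18% of all such regions lost their peak in this way. No test was made over the members, which were chosen with results of these libraries known.

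Most members also lacked a peak in the WT line with Dox and WX-02-23. The Dox DMSO share of members is 0 by the rule, so a share above 0 is not by itself a measure of peaks brought back. The 2 libraries with Dox and WX-02-23 held 15.3% and 12.7% of members, a mean of 14.0% ± 1.83 (SD, n = 2). On average they held 85.8% of kept, 28.0% of partly kept and 35.9% of all regions. At equal list length the means were 12.7% of members and 34.6% of all regions. A total of 64 members were held by both libraries, 174 by 1 and 843 by neither. The 64 became 107 or 138 when no Dox replicate 1 or 2 was left out of the rule, 327 or 241 when Dox DMSO replicate 1 or 2 was, and 137 or 165 when only 1 WX-02-23 library was asked for, without replicate 1 or 2. It was 58 with the members fixed and the lists cut to equal length. The 64 make 5.92% of members. Both WX-02-23 libraries held 30.2% of all regions, and 1.71% of the 75230 regions without a peak in either Dox DMSO library. Those 75230 regions include many seen in few libraries, with a median width of 244 bp, so they are not matched to members in strength.

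PladB in the WT line held more members than WX-02-23 did. Its libraries held 20.5% and 46.5%, a mean of 33.5% ± 18.4 (SD, n = 2), and the higher value belongs to the longer list. Both values lay above both WX-02-23 values, and WX-02-23 minus PladB was -19.6 points (SE 13.1). Without the shorter PladB list, replicate 1, the difference was -32.6 points, and without replicate 2 it was -6.57 points. Both PladB libraries held 154 members (14.2%, against 36.7% of all regions and 1.22% of the regions without a Dox DMSO peak). The same direction was found over all regions, where the difference was -8.23 points. At equal list length the WX-02-23 libraries held 12.8% and 12.7% and the PladB libraries 13.04% and 15.3%, a difference of -1.43 points. The gap between the treatments in the full lists thus moved with list length, and at equal length WX-02-23 still did not exceed PladB.

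The C258A line, which lacks the cysteine that WX-02-23 reacts with in its induced FOXA1, held more members in DMSO than the WT line did in WX-02-23 in the full lists. Its DMSO libraries held 38.4% and 42.1%, a mean of 40.2% ± 2.62 (SD, n = 2). Both held 255 members (23.6%, against 41.0% of all regions and 5.16% of the regions without a Dox DMSO peak in the WT line). The same direction was found over all regions, with 47.5% in C258A DMSO and 35.9% in WX-02-23 of the WT line. That difference was 26.3 points in members and 11.6 points over all regions, without overlap in either. At equal list length the DMSO share was 13.3% and 12.4%, which overlaps the 12.8% and 12.7% of WX-02-23 in the WT line. The shortened DMSO lists held 35.5% of all regions.

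WX-02-23 in the C258A line gave 24.8% and 42.4%, a mean of 33.6% ± 12.4 (SD, n = 2), and the longer list again held more. It overlapped DMSO, with a difference of -6.66 points (SE 8.98). PladB in that line gave 24.98% and 30.1%, a difference from DMSO of -12.7 points (SE 3.15) without overlap. Over all regions the difference from DMSO was -0.633 points for WX-02-23, with overlap, and -5.85 points for PladB, without overlap. At equal list length both directions turned in members. WX-02-23 held 13.1% and 14.2%, overlapping DMSO, and PladB held 15.6% and 14.3%, above both DMSO libraries at 13.3% and 12.4%. Of the 745 members held by any DMSO or WX-02-23 library of the C258A line, 28 (3.76%) were held by both WX-02-23 and no DMSO library, where 2.37% of all such regions were. The reverse was found for 60 members (8.05%), where 2.55% of all such regions were lost. These counts are from the full lists, which differ in length, and were not made at equal length.

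**Figure D4:**
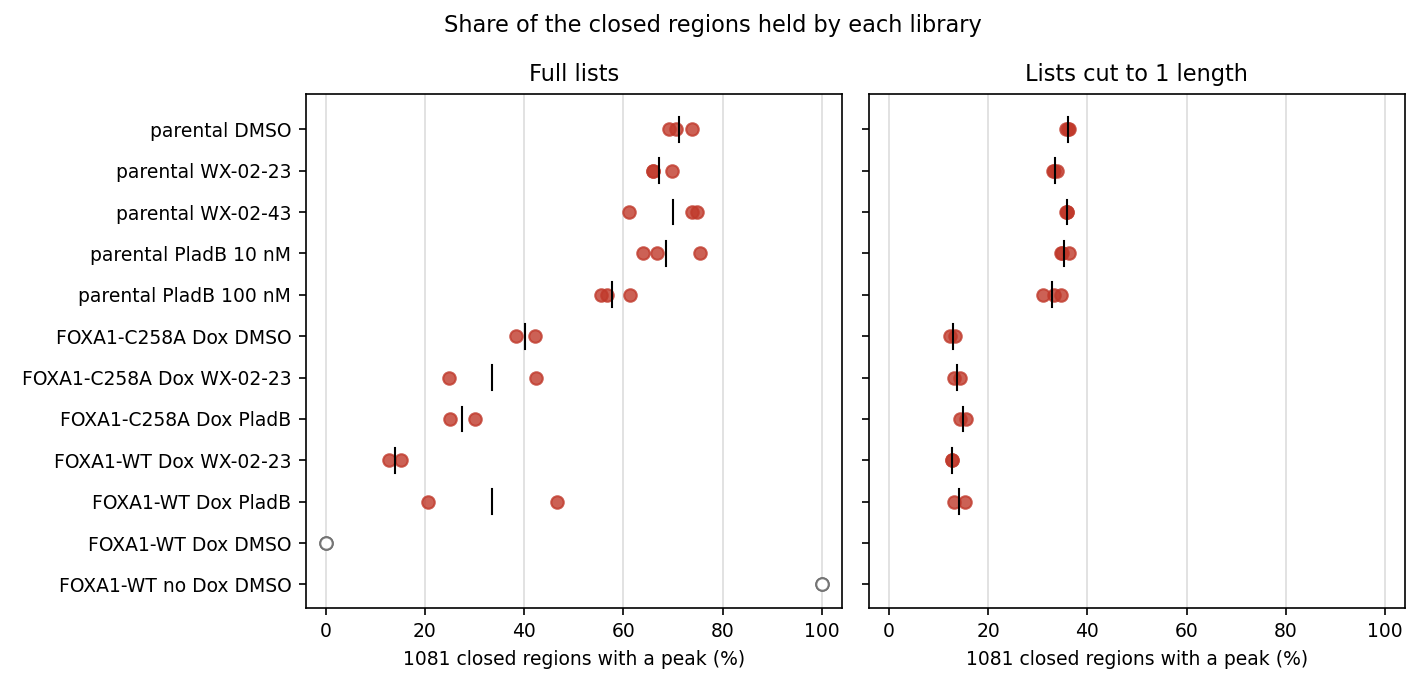
Share of members with a peak (x axis, percent) in each library, by line and treatment (y axis), in the full lists (left) and with the lists cut to equal length (right), with 1 point per library and a black tick at the group mean; open points are the 4 libraries that chose the members. In the full lists parental libraries lie between 55.4% and 75.4%, the WX-02-23 libraries of the WT line at 15.3% and 12.7%, and the C258A DMSO libraries at 38.4% and 42.1%, and at equal length all 10 Dox libraries lie between 12.4% and 15.6%.

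The state of a member in parental cells moved with its state under Dox. The WX-02-23 libraries of the WT line held on average 10.5% of the 124 members seen in 0 to 2 parental libraries, 11.2% of the 469 seen in 3 to 12, and 17.5% of the 488 seen in 13 to 15. For C258A DMSO the same 3 groups gave 25.4%, 37.1% and 47.0%, and for PladB in the WT line 20.2%, 30.9% and 39.4%. The median no Dox rank of these groups was 13.1%, 15.5% and 17.5%, while their summit reads, with medians of 11.5, 10.5 and 11, did not follow that order. Their median widths rose as well, at 262, 333 and 443.5 bp, and a region's width grows with the number of libraries that hold it. Shares also rose with strength in the no Dox lists: with members split by rank into 4 groups of like size, from weakest to strongest, C258A DMSO held 31.3%, 34.1%, 40.9% and 54.4%, and WX-02-23 in the WT line held 8.70%, 11.1%, 17.0% and 18.8%. These shares are from the full lists and were not made at equal length. The separate parts of parental state, rank and width were not tested.

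**Figure D5:**
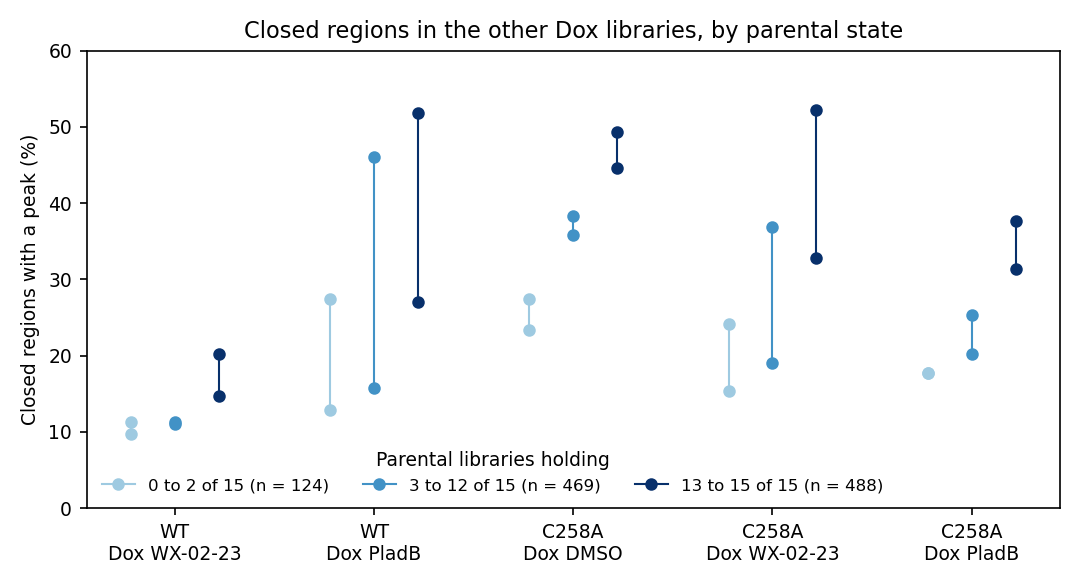
Share of members with a peak (y axis, percent) in each of the 10 other Dox libraries, by line and treatment (x axis), with members split by colour into those held by 0 to 2, 3 to 12 and 13 to 15 of 15 parental libraries; each point is a library and lines join both libraries of a group. The group mean rises with parental state in WT WX-02-23 (10.5%, 11.2% and 17.5%) and in C258A DMSO (25.4%, 37.1% and 47.0%).

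Weak kept regions offer a comparison at like strength. Among regions ranked below 10% in the no Dox lists, WX-02-23 in the WT line held 9.04% of members and 40.7% of kept regions, PladB held 25.6% and 73.2%, and C258A DMSO held 31.0% and 73.9%. Parental DMSO libraries, of cells that carry neither construct, held 66.3% and 86.3%. Members thus had fewer peaks than kept regions of the same rank in libraries that the rule did not use, parental ones included. These shares are from the full lists. Members and kept regions of that rank differ by their Dox DMSO peaks, which is the rule itself.

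A minority of members had no peak under Dox at all. Of the 1081, 174 (16.1%) had no peak in any of the 10 other Dox libraries, against 0.0833% of kept and 2.47% of partly kept regions, but against 29.8% of all regions and 58.8% of those without a Dox DMSO peak. A total of 6 (0.555%) were held by all 10, against 24.8% of all regions and 0.0279% of those without a Dox DMSO peak. At least 5 of the 10 libraries held 290 members (26.8%), against 43.0% of all regions and 3.97% of those without a Dox DMSO peak. A total of 32 members had a peak in all 15 parental and both no Dox libraries and no peak in any of the 12 Dox libraries. They make 10.9% of the 293 members held by all 15 parental libraries. Partly kept regions have a Dox DMSO peak by definition. Of those held by all 15 parental libraries, 1.68% had no peak in any of the 10 other Dox libraries. The summits of the 32 members held a median of 10.75 reads, between 7.5 and 29. At the other end, 20 members had a peak in the 2 no Dox libraries alone. Any region with the pattern of the 32 or of the 20 is a member by the rule, so no other region can be set beside them.

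Individual members show these patterns. The highest ranked, chr9:125924457-125925030, spans 574 bp, had 16 and 19 summit reads in the no Dox libraries and a fold enrichment of 9.40 and 10.2, and was held by all 15 parental libraries and 9 of the 10 other Dox libraries, including both WX-02-23 libraries of the WT line. Its closing in Dox DMSO was therefore not shared by the other Dox treatments. The region at chr8:74390537-74390848 had 17 and 16 reads. Every parental DMSO, WX-02-43 and PladB 10 nM library held it, as did 2 of 3 in PladB at 100 nM and none of 3 in WX-02-23. In the WT line with Dox, both PladB libraries and neither WX-02-23 library held it. In the C258A line, both DMSO and both WX-02-23 libraries held it, and neither PladB library did. This is 1 region, and how many others share its pattern was not counted. The third, chr4:85452071-85452444, had 20 and 13 reads and was held by all 15 parental libraries, both PladB libraries of the WT line, 1 of its 2 WX-02-23 libraries and both C258A DMSO libraries.

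Of the 64 members held by both WX-02-23 libraries of the WT line, 24 (37.5%) had a peak in all 15 parental libraries. The 843 held by neither gave 24.8%, and all regions 32.6%. Both C258A DMSO libraries held 21 of the 64 (32.8%) and 20.9% of the 843, against 41.0% of all regions. Both WT PladB libraries held 35.9% of the 64 and 10.9% of the 843, against 36.7% of all regions. Members with a peak in both of these libraries and in none of WT PladB, C258A DMSO and C258A PladB numbered 3: chr11:59524357-59524647 (28 and 29 reads, all 15 parental libraries), chr16:80884727-80885333 (9 and 10 reads, 12 parental libraries) and chr16:11734137-11734403 (23 and 22 reads, no parental library). Conversely, 92 members were held by both PladB libraries and by neither WX-02-23 library, and 13 the other way round. These counts are from the full lists, which differ in length, and the same counts over all regions are not given here. Among members held by no parental library, chr1:121386177-121386459 had 14 and 13 reads and both WX-02-23 libraries of the WT line held it, and chr21:32710353-32710547 had 11 and 11 reads and only the 2 no Dox libraries held it.

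Members were spread along the genome. The nearest other member lay at a median of 736063 bp, and 79 members had another within 50 kb. There were 3 runs of 3 members, at chr10:63778192-63808021, chr12:122119698-122192203 and chr21:9846580-9858381. Per 100 regions held by both no Dox libraries, chromosome Y had 3.77 members (4 of 106), chromosome 21 had 3.39 (22 of 649) and chromosome 14 had 3.27 (57 of 1743). Chromosomes 19 and 15 had 1.19 each (33 of 2778 and 20 of 1679). A Dox DMSO peak lay within 500 bp of 101 members (9.34%), against 10.0% of the 75230 regions without a Dox DMSO peak, and the median gap was 6159 bp. A region that opened on induction, with peaks in both Dox DMSO and neither no Dox library, lay within 10 kb of 131 members (12.1%) and of 7.52% of kept regions. The median gap to such a region was 75375 bp in members, 90835 bp in kept regions and 84696 bp over all regions but the opened ones. The background around the no Dox summits was over 3 times the library's own in both libraries for 160 members (14.8%). The same was found for 12.7% of partly kept and 39.7% of kept regions. Genes, annotations and sequence at these positions were not analysed here.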

How the data were processed

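ATAC-seq peak lists of 29 libraries of 22Rv1 cells were used. The submitters' processing notes name Bowtie2, MACS2 and build hg19, with versions, options and read extension not given in the sources used here. Each library has its own deposited list. For each peak the authors deposited a score, a fold enrichment at the summit (a ratio), the −log10 p-value, the −log10 q-value and a summit position counted from the start. No such value was compared between lists, except for the recovered summit reads. The 35 mitochondrial peaks were left out.

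Peaks were merged into regions and looked up in each library (minimum overlap 1 bp), and bedtools gave the same number of regions. Summit reads were recovered from the deposited fold and −log10 p values, as the pileup that gives both (tolerance 0.01 in −log10 p). This matched all peaks, and 0.0454% to 6.07% of a list also matched another number. They depend on the read extension. Groups were compared by means, SDs and SEs with no test, since the members were chosen on the same libraries' contrast and groups hold 2 or 3. Regions named by position were the 5 with the highest mean no Dox rank in each of 7 classes, and 3 on each side of the rule, and a selection of them is printed. Alternatives covered the overlap, the q threshold, list length, the merging and leaving out each replicate. The members, lists and alternatives were chosen with earlier results of these data known. Scripts used Python 3.11.15, numpy 2.4.6, pandas 2.3.3 and bedtools 2.31.1, were tested on simulated data, and figures were drawn with matplotlib 3.10.9. No hg19 genome or annotation was used.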

Additional observations from a re-analysis of the deposited data

How the results depend on the processing

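Of 183 alternative values over 12 results, 136 stayed within the spread between libraries or 1.5 times the count, 47 moved and none reversed. Shares, counts and widths cannot change sign, so only the differences between treatments could have reversed. The spread of WX-02-23 minus PladB in the WT line was 18.5 points. A move from -19.6 to -1.43 points therefore counted as staying within it. The treatment differences in the C258A line, which turned at equal list length, were not among the 12 results. With all lists cut to equal length before choosing members, there were 3106 members, held at 27.9% by WX-02-23 in the WT line, 29.8% by C258A DMSO and 52.3% by parental DMSO. With 100 bp on each side of summits in place of peaks, WX-02-23 held 22.6% and parental DMSO 60.9%. With the members fixed and the other lists cut to equal length, PladB in the WT line held 14.2%, C258A DMSO 12.9%, C258A WX-02-23 13.7% and parental DMSO 36.0%. Leaving out each replicate in turn gave 2392 to 4229 members, with shares of 8.76% to 23.0% for WX-02-23 in the WT line, 26.2% to 55.4% for C258A DMSO, 24.2% to 47.1% for C258A WX-02-23 and 57.3% to 79.2% for parental DMSO. A stricter −log10 q of 5 also gave 1081 members, of which those overlapping the reported ones were 624. Members held by both WX-02-23 libraries of the WT line numbered 446 with lists of equal length and 200 with summit windows. Members held by no parental library numbered 382 and 128 in the same settings. The causes were not tested. No paired analysis was possible because the results come from no test. A region without a peak can be open below the detection limit of its library, and read depth per library is unknown.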

Other observations

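The 32 members open in all 15 parental and both no Dox libraries and without a peak in any of the 12 Dox libraries, singled out after their values were seen, had a median width of 448.5 bp. The highest ranked lay at chr1:48712374-48712871, with 10 and 17 summit reads in the no Dox libraries. It was followed by chr13:65864582-65864991, with 11 and 11 reads, and chr9:28882760-28883591, with 7 and 14 reads. Each lay between 1004 and 9552 bp from the nearest Dox DMSO peak.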
